A study of Mus musculus with 8 samples.

Results

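The clustered protocadherins are cell-surface adhesion proteins encoded side by side in the alpha, beta and gamma clusters. They were followed here in RNA of mouse cardiac fibroblasts that did or did not carry a plasmid for thrombospondin-4 (TSP-4), a glycoprotein of the extracellular matrix encoded by Thbs4. The members were the protein-coding rows whose gene name marks an alpha, beta or gamma clustered protocadherin, 57 of the 54532 rows of the table, with 14 in the alpha, 22 in the beta and 21 in the gamma cluster. Members were chosen by name alone, but the set was chosen on the measured level of 1 of them, Pcdhga8, noted as higher with the TSP-4 plasmid in an earlier reading of the same libraries, so its own difference between the plasmids is given as a description without a test. The cells were C57BL/6 cardiac fibroblasts at passage 2. One group was transfected with pAAV.CMV.SV40.THBS4-HA.SV40(polyA), which drives HA-tagged murine Thbs4 from a CMV promoter, and is called the TSP-4 plasmid group. The control group was transfected with the empty plasmid pAAV-CA, which by its name is another construct, so the groups differ by plasmid and not by Thbs4 alone. Both groups spent 12 h in standard medium without antibiotics and 24 h without serum, and each gave 4 poly(A) libraries lettered A to D. The labels do not say whether a letter stands for an animal, a culture or a day, so the spread behind each p-value may be technical.

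Clustered protocadherins are best known in the nervous system, where each neuron displays its own combination of them and membranes bearing the same combination recognise one another. In the alpha and gamma clusters every gene has its own promoter and a large first exon for the extracellular, transmembrane and proximal cytoplasmic parts, which is spliced to constant exons shared by the whole cluster. Beta genes have a single exon and no shared cytoplasmic part. Most promoters of the alpha, beta and gamma A and B groups are thought to be chosen at random per cell with the help of CTCF and cohesin, whereas the C-type genes at the ends of the alpha and gamma clusters are expressed more uniformly.

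Depth was 17123735 to 22530947 counts per library. The plasmid gene Thbs4 held 25754 to 38063 counts in TSP-4 plasmid libraries and 2 to 11 in empty plasmid libraries. Fibroblast genes were abundant, with the collagen gene Col1a1 at 835 ± 94.8 FPKM in the TSP-4 plasmid group and 787 ± 100 FPKM in the empty plasmid group (SD, n = 4 each; FPKM is fragments per kilobase of exon, scaled to sequencing depth). The 10 fibroblast markers summed to 13370 to 18020 CPM (counts scaled to a common library size with TMM factors) in TSP-4 plasmid libraries and 13055 to 18535 CPM in empty plasmid libraries. The 8 macrophage markers summed to 285 to 1600 CPM in TSP-4 plasmid libraries and 310 to 1296 CPM in empty plasmid libraries, and the 6 endothelial markers to 36.5 to 53.1 CPM in TSP-4 plasmid libraries and 38.2 to 53.2 CPM in empty plasmid libraries. The 6 cardiomyocyte markers summed to 12.7 to 17.6 CPM with the TSP-4 plasmid and 12.3 to 16.4 CPM with the empty plasmid. Among them the myosin gene Myh6 averaged 0.00817 FPKM with the TSP-4 plasmid and 0.00579 FPKM with the empty plasmid. Of these 6 markers 1 passed the expression filter described below, so Myh6 does not stand for the whole list. The 6 pericyte and smooth muscle markers summed to 31.7 to 55.0 CPM with the TSP-4 plasmid and 37.5 to 61.4 CPM with the empty plasmid. The 5 Schwann cell markers summed to 25.8 to 35.4 CPM with the TSP-4 plasmid and 29.4 to 32.6 CPM with the empty plasmid. Among 6 neuron markers, Snap25, a synaptic vesicle fusion gene, was at 0 in all 8 libraries, and 2 passed the expression filter. The sums of the neuron markers were 11.7 to 17.8 CPM with the TSP-4 plasmid and 10.3 to 15.97 CPM with the empty plasmid. In bulk RNA, fewer cells of a type and less RNA per cell cannot be told apart.

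The shared exons decide what a value per gene can mean. All 57 members lie on chromosome 18 of GRCm38, the alpha cluster from 36930184 to 37187661, the beta cluster from 37264938 to 37524479 and the gamma cluster from 37661793 to 37841873. The most common length of exon shared with other genes was 2860 bp in the alpha cluster and 2119 bp in the gamma cluster, whereas 20 of 22 beta members shared no exon base. A median of 46.4% of an alpha member's exon bases and 55.4% of a gamma member's belonged to it alone. Genes that contain the same constant exons had very different counts. Pcdhga10 had 0 counts in TSP-4 plasmid library D and in empty plasmid libraries B and C. Pcdhgc3, which ends in the same exons, had 1099, 1528 and 1354 there. All 2613 own bp of Pcdhga10 lie under Gm26672, a gene on the other strand that held 1 to 6 counts. If strand was not used in counting, low counts of Pcdhga10 need not mean a low level. Gm42416, Gm37013, Gm37388 and Gm38182, which share exon bases with gamma members on the same strand, were at 0 in all 8 libraries. In the alpha cluster Gm42416 also shares exon bases with Pcdha4, Gm37013 with Pcdha6 and Gm37388 with Pcdha7. Levels of different members are therefore set side by side per kilobase of own exon bases, called own-exon RPKM, and how reads in shared exons were assigned is not given in the sources used here.

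**Figure D1:**
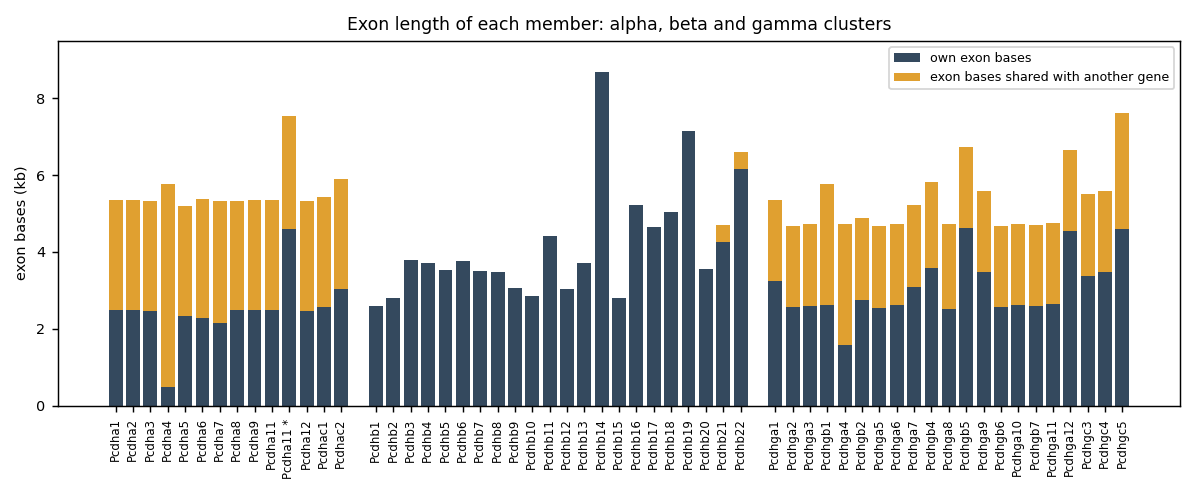
Exon bases in kilobases for each of the 57 members, in chromosome order within the alpha, beta and gamma clusters, split into bases that belong to no other gene on the strand (dark) and bases shared with another gene (yellow). The asterisk marks the second row named Pcdha11. Beta members are nearly all dark, and Pcdhga4 has only 1570 own bp of its 4727.

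The gamma cluster supplied most of the clustered protocadherin RNA in these fibroblasts. It held 80.7% of all counts of the 57 members, the beta cluster 18.05% and the alpha cluster 1.24%, and the 57 members together held 0.0185% of all counts. Of the 57, 37 were detected in all 8 libraries, 14 in some and 6 in none. Those at 0 were Pcdha1, Pcdha4, Pcdha6, Pcdha7, Pcdhac1 and Pcdhb1, which at this depth allows up to 0.0198 CPM over the 8 libraries (3 counts of 151703501, counting error only). That limit covers only reads that could be assigned to a gene. Pcdha4 has only 494 own bp of its 5768 and shares exon bases with Gm42416 on the same strand. If reads in shared exons were left out of the counts, its 0 need not mean a low level. The expression filter, which asks for about 0.549 CPM in at least 4 libraries, was passed by 32 members: 1 alpha, 11 beta and 20 gamma. None of them passed through the TSP-4 plasmid libraries alone. Just inside stood Pcdhb5 with 84 counts in all, and just outside stood Pcdha11 with 70.

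**Figure D2:**
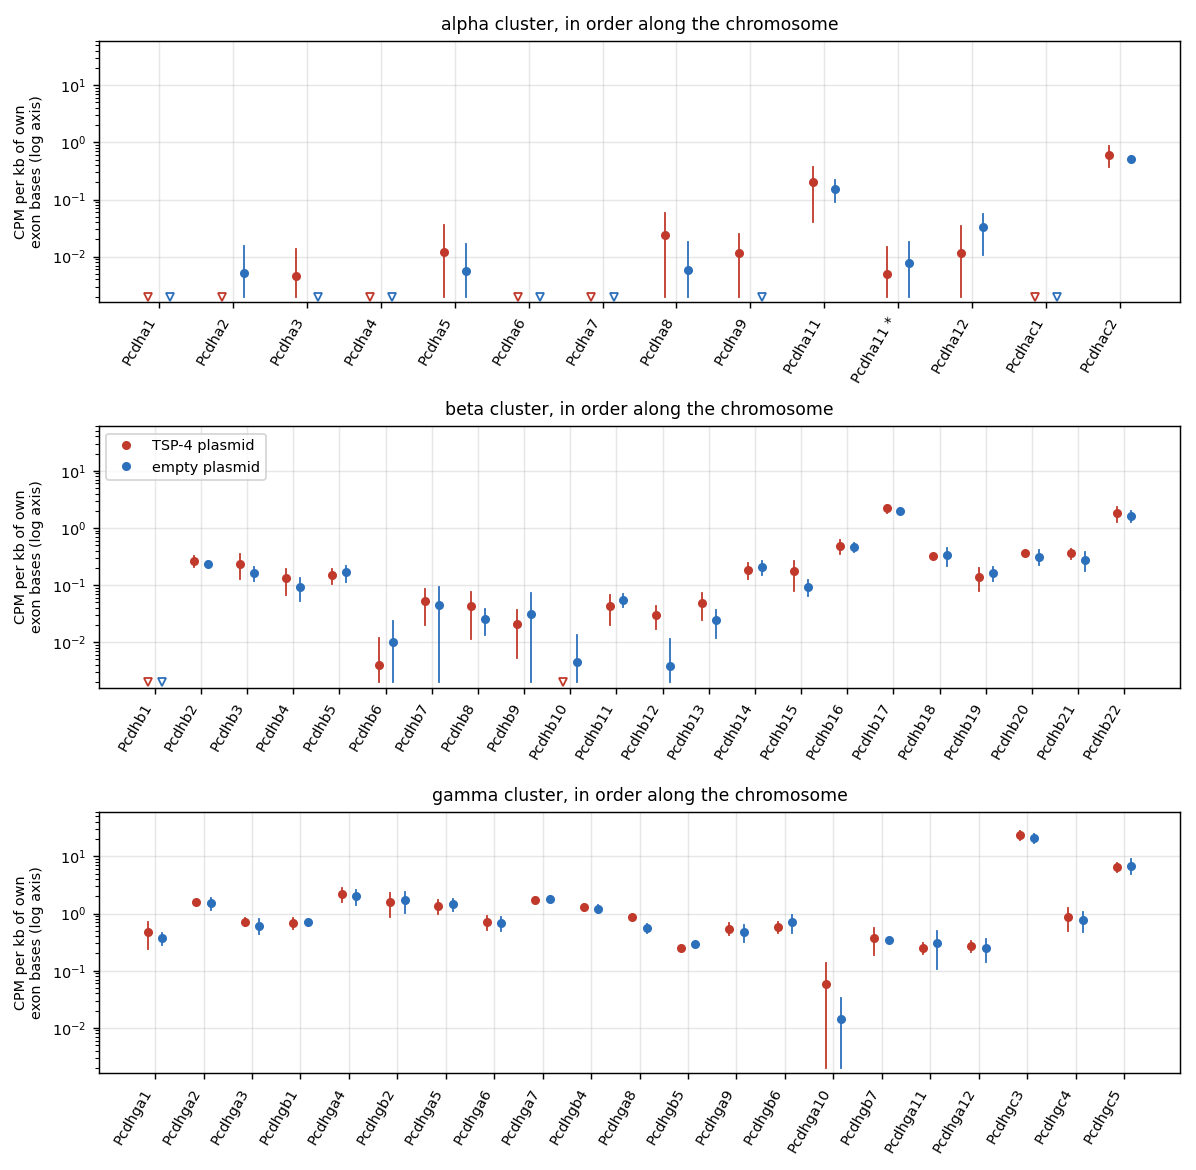
Level of every member in CPM per kilobase of own exon bases on a log axis, in chromosome order, for the TSP-4 plasmid group (red) and the empty plasmid group (blue). Points are means of 4 libraries, bars run over 1 SD and are drawn down to the lower edge where the mean minus SD falls below it, open triangles mark groups at 0, and the asterisk marks the second row named Pcdha11. Pcdhgc3 stands highest at a mean of 22.4, most alpha members lie near or at 0, and the later beta members lie above most earlier ones.

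The C-type members covered the whole range of levels. Pcdhgc3, which in mouse neurons promotes dendrite branching, ranked 1 of the 57 at an own-exon RPKM of 22.4 and held 50.1% of the gamma counts. Its counts were 1757, 1672, 1417 and 1099 in TSP-4 plasmid libraries A to D and 1391, 1528, 1354 and 1160 in empty plasmid libraries A to D. Libraries of letter D were the lowest of each group, and the groups overlapped. Reads from BC037039, an antisense gene over 1559 of its own bp, could not be told apart from Pcdhgc3 reads if strand was not used in counting. That gene held 7 to 35 counts, which in that case need not show how many reads lay in the overlap.

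Pcdhgc5, a partner of GABA-A receptors in neurons, ranked 2 at an own-exon RPKM of 6.71. It had 531, 646, 544 and 483 counts in TSP-4 plasmid libraries A to D and 459, 754, 633 and 557 in empty plasmid libraries A to D, with B the highest library of each group. Pcdhgc4, which supports neuron survival in mice, ranked 11 at 0.820, with 58, 68, 73 and 24 counts in TSP-4 plasmid libraries A to D and 41, 67, 59 and 34 in empty plasmid libraries A to D. Letter D was lowest in both groups here too. Pcdhac2, needed for the spacing of serotonergic axons in mice, stood at 0.553 with 37, 20, 28 and 51 counts in TSP-4 plasmid libraries and 35, 21, 33 and 29 in empty plasmid libraries. It was the single alpha member to pass the filter and held 72.8% of the alpha counts, while the other alpha C-type gene, Pcdhac1, was at 0.

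The 17 gamma A and B members that passed the filter ran from 0.260 to 2.11 in own-exon RPKM with a median of 0.691. Pcdhga4 ranked 3 of all members at 2.11, although the deposited FPKM, which divides by the full length, put it at rank 10. It is named after its values were seen. Others of this group were Pcdhga7 at 1.78, Pcdhgb2 at 1.65, Pcdhga2 at 1.55 and Pcdhgb4 at 1.25. Pcdhga8, the member that led to this set, ranked 12 of the 57 at 0.712. The gamma A members summed to 27.7 ± 4.24 CPM in TSP-4 plasmid libraries and 26.0 ± 4.66 CPM in empty plasmid libraries, and the gamma B members to 14.4 ± 2.12 CPM in TSP-4 plasmid libraries and 14.9 ± 2.07 CPM in empty plasmid libraries (SD, n = 4 each). The gamma C members, at 113 ± 19.6 CPM in TSP-4 plasmid libraries against 106 ± 22.8 CPM in empty plasmid libraries, took 58.3% of all member counts. The 1 gamma member to miss the filter was Pcdhga10, with 14 counts over 8 libraries. Gm26672 on the other strand covers all of its own exon bases, so its level is uncertain if strand was not used in counting.

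Beta members were uneven along their cluster. The first 11 in chromosome order averaged a sum of 3.06 CPM with 3 members past the filter, and the last 11 averaged 30.4 CPM with 8 past it. In own-exon RPKM these sums were 0.888 for the first 11 and 5.82 for the last 11. Most of the 30.4 CPM came from Pcdhb17 at 9.80 CPM and Pcdhb22 at 10.6 CPM. Pcdhb17 ranked 4 of all members at an own-exon RPKM of 2.1, with 264, 188, 176 and 144 counts in TSP-4 plasmid libraries A to D and 222, 162, 181 and 155 in empty plasmid libraries A to D. Pcdhb22, at 1.72, had 265, 226, 224 and 115 counts in TSP-4 plasmid libraries and 207, 192, 236 and 139 in empty plasmid libraries. Each of these had its lowest library of both groups under letter D, and their groups overlapped. The next beta members were well below, with Pcdhb16 at 0.472, Pcdhb20 at 0.337, Pcdhb18 at 0.330 and Pcdhb21 at 0.320. Near-identical stretches were rare: at most 0.373% of the 100-base words of a member that passed the filter also occurred in a gene elsewhere.

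In assigned counts the alpha cluster was nearly silent beyond Pcdhac2. Pcdha11 (ENSMUSG00000007440), an alternate alpha isoform just outside the filter, had 21, 5, 13 and 1 counts in TSP-4 plasmid libraries and 8, 4, 12 and 6 in empty plasmid libraries. The highest and the lowest of the 8 both lay in the TSP-4 plasmid group. A second row of the same name (ENSMUSG00000102206) had 5 counts in all.

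No clustered protocadherin passed the test between the plasmids. With edgeR's quasi-likelihood test and Benjamini-Hochberg adjustment at 0.05, 0 of 32 members were called, beside 0.00679% of the 14723 genes tested, which is Thbs4 alone. DESeq2 and limma voom also called 0 members. At an unadjusted p under 0.05, 0 of the 31 members without Pcdhga8 were found, beside 1.6% of all genes, 0.652% higher and 0.944% lower. With the letter as a block 0 of 32 members were called, beside 0.0136% of all genes. In that fit 2 members had an unadjusted p under 0.05, Pcdhga8 and Pcdhgc3, both higher with the TSP-4 plasmid, beside 8.12% of all genes and 4.14% in that direction; for Pcdhga8, on which the set was chosen, this is no test. Among the members the smallest adjusted p of the block fit was 0.425, that of Pcdhgc3. Log2 fold changes of the 32 members, TSP-4 plasmid over empty plasmid, ran from -0.28 to 0.65 with a median of 0.10, which was 0.09 without Pcdhga8. Of the 32, 20 were above 0 and 12 below, or 19 above and 12 below without Pcdhga8. Of all genes tested 49.9% were above 0, and their median was -0.00.

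The counts were also summed over each cluster, without a test. The alpha sum was 2.75, 1.6, 2.60 and 3.15 CPM in TSP-4 plasmid libraries A to D and 2.11, 1.65, 2.50 and 1.98 CPM in empty plasmid libraries A to D. Its means were 2.52 ± 0.659 CPM in the TSP-4 plasmid group and 2.06 ± 0.350 CPM in the empty plasmid group (SD, n = 4 each), the largest log2 ratio of the 3 clusters at 0.29, with overlapping groups. The beta sum was 37.5, 40.9, 36.0 and 25.6 CPM in TSP-4 plasmid libraries and 33.1, 34.4, 35.6 and 24.9 CPM in empty plasmid libraries, so it was higher with the TSP-4 plasmid in 4 of 4 letters while the groups overlapped. The log2 ratio of the beta means was 0.13, and between 0.03 and 0.25 when 1 library was left out. For the gamma cluster the sums were 150, 182, 160 and 128 CPM in TSP-4 plasmid libraries and 132, 183, 145 and 127 CPM in empty plasmid libraries, a log2 ratio of 0.08 that spanned -0.00 (without TSP-4 plasmid library B) to 0.21 when 1 library was left out. The gamma difference was smaller than the SD within either group, 22.3 CPM in the TSP-4 plasmid group and 25.5 CPM in the empty plasmid group. So was the beta difference, against SDs of 6.59 CPM in the TSP-4 plasmid group and 4.84 CPM in the empty plasmid group. The alpha difference was smaller than the SD of the TSP-4 plasmid group and larger than that of the empty plasmid group. These SDs include the spread between letters, so they do not measure how a difference varied within letters. The alpha and gamma sums were each higher with the TSP-4 plasmid in 3 of 4 letters.

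Pcdhga8 (ENSMUSG00000103897) is a gamma A isoform whose own first exon runs from 37725706 to 37728208 on the plus strand. It had 43, 41, 39 and 38 counts in TSP-4 plasmid libraries A to D and 25, 20, 32 and 30 in empty plasmid libraries A to D. In CPM these were 1.94, 2.34, 2.3 and 2.14 with the TSP-4 plasmid and 1.17, 1.18, 1.63 and 1.56 with the empty plasmid, so every TSP-4 plasmid library stood above every empty plasmid library. The group means were 2.18 ± 0.183 CPM in the TSP-4 plasmid group and 1.39 ± 0.244 CPM in the empty plasmid group (SD, n = 4 each). Their log2 ratio in the edgeR fit was 0.65 and stayed between 0.57 and 0.73 when any 1 library was left out. The spread of its counts within groups was no larger than that of counting alone (chi-square per degree of freedom 0.569). The median of the 32 members was 2.44, and 4 of them, Pcdhga8 included, were under 1. Since the set was chosen on the difference of Pcdhga8, its low spread and steady ratio are descriptions and no test. An antisense gene, Gm37165, covers 416 of its 2503 own bp and held 0 to 1 counts. If strand was not used in counting, these need not show how many reads lay in the overlap.

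The genes that flank Pcdhga8 in the cluster were set beside it. Pcdhgb4, just before it, averaged 4.61 ± 0.562 CPM in TSP-4 plasmid libraries against 4.33 ± 0.674 CPM in empty plasmid libraries (log2 fold change 0.09, 95% interval -0.26 to 0.45). Pcdhgb5, just after it, had 26, 19, 19 and 21 counts in TSP-4 plasmid libraries and 27, 25, 26 and 25 in empty plasmid libraries. In CPM its groups did not overlap, with the TSP-4 plasmid group the lower, at a log2 fold change of -0.23 (95% interval -0.63 to 0.17). Without Pcdhga8, on which the set was chosen, 31 members passed the filter. Of these, 0 were higher with the TSP-4 plasmid without overlap, beside 0.652% of all genes tested. Pcdhgb5 was the 1 that was lower without overlap, beside 0.863% of all genes tested. Outside the filter the CPM of Pcdhb12, named after its values were seen, was also higher with the TSP-4 plasmid without overlap. Its counts were 3, 2, 1 and 1 with the TSP-4 plasmid (A to D) and 1, 0, 0 and 0 with the empty plasmid. Whether Pcdhga8 differs from its neighbours was not tested.

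**Figure D3:**
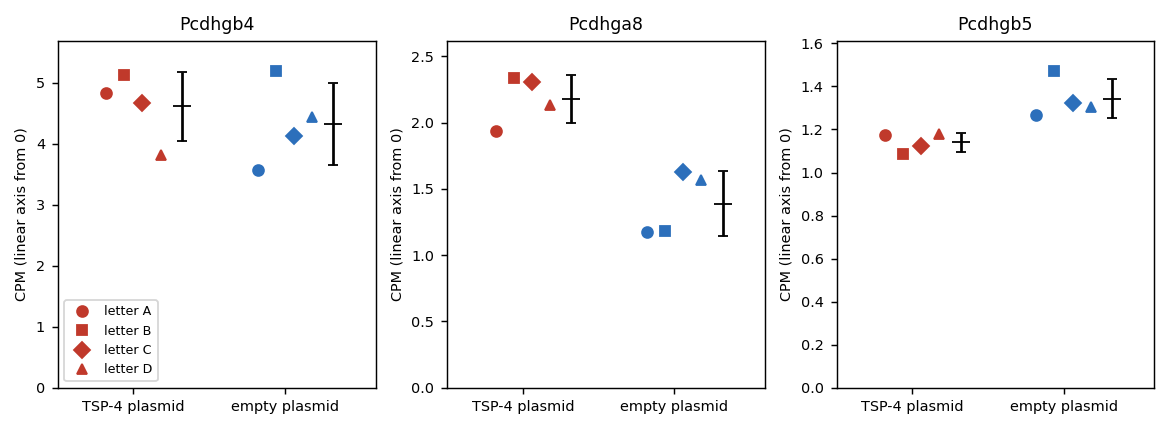
CPM of Pcdhga8 and of the genes before (Pcdhgb4) and after it (Pcdhgb5) in each of the 8 libraries, TSP-4 plasmid in red and empty plasmid in blue, with marker shapes for letters A to D and mean ± SD (n = 4) in black; each axis is linear from 0. The groups are apart for Pcdhga8 (1.94 to 2.34 CPM with the TSP-4 plasmid, 1.17 to 1.63 CPM with the empty plasmid) and, in the other direction and by less, for Pcdhgb5.

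For the other members the intervals of the fit with group alone say how large a difference could be. That fit counts the spread between letters as error. Without Pcdhga8, 26 of 31 members had a 95% interval within 2-fold in either direction, where 88.5% of all genes tested had one. The 5 with wider intervals were Pcdhb3, Pcdhb21, Pcdhga1, Pcdhga11 and Pcdhgc4. Pcdhb3 had 10, 25, 17 and 13 counts in TSP-4 plasmid libraries and 13, 8, 17 and 10 in empty plasmid libraries, which gave the largest log2 fold change after Pcdhga8, 0.52, with an interval from -0.35 to 1.39. Pcdhga11, the lowest at -0.28, had 12, 11, 15 and 11 counts in TSP-4 plasmid libraries A to D and 33, 11, 9 and 10 in empty plasmid libraries A to D. Its negative value rested on empty plasmid library A, without which it was 0.29. The abundant Pcdhgc3 was tightly bounded at 0.17 (-0.19 to 0.53), as was Pcdhb17 at 0.14 (-0.16 to 0.45), and both were higher with the TSP-4 plasmid in 4 of 4 letters. They were the only such members among the 31 without Pcdhga8, beside 8.03% of all genes tested. Pcdhga8 was also higher in 4 of 4 letters, but the set was chosen on its difference, so this is no test.

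**Figure D4:**
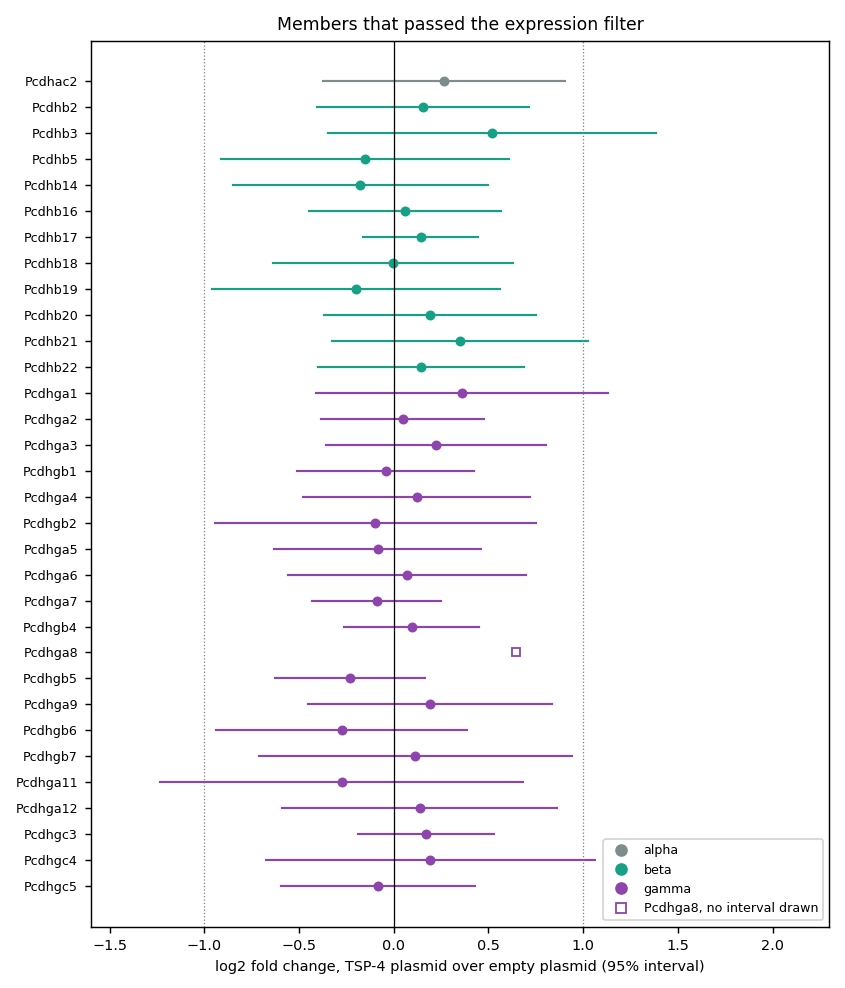
Log2 fold change, TSP-4 plasmid over empty plasmid, with 95% intervals from edgeR for the members that passed the filter, in chromosome order from the top; colours give the cluster, dotted lines mark 2-fold, and Pcdhga8 is drawn as an open square without an interval. In this fit with group alone, which counts the spread between letters as error, all other intervals cross 0. Of the 31, 26 stay between the dotted lines.

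Members were also compared between the letters, which both plasmid groups share. In a fit with letter and plasmid, 6 of 32 members differed between letters A to D at an adjusted p under 0.05 (edgeR quasi-likelihood F test), beside 28.1% of all genes tested. They were Pcdhgc3, Pcdhgc4, Pcdhgc5, Pcdhgb2, Pcdhb22 and, named after its values were seen, Pcdhga4. Pcdhgb2 had the widest range of the 32 as a ratio, with letter means of 7.18, 2.70, 3.59 and 4.77 CPM for A to D and an adjusted p of 0.000376. Its counts were 154, 43, 55 and 88 in TSP-4 plasmid libraries A to D and 158, 50, 77 and 88 in empty plasmid libraries A to D, so the order of the letters was the same under both plasmids. Letter A was highest and letter B lowest.

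The 3 gamma C genes did not follow Pcdhgb2. Letter means of Pcdhgc3 were 72.3, 92.7, 76.3 and 61.1 CPM (adjusted p 0.000190) and those of Pcdhgc5 were 22.8, 40.6, 32.2 and 28.1 CPM (adjusted p 0.000117). Both were highest in B, but the first was lowest in D and the second in A. Pcdhgc4 ran at 2.27, 3.91, 3.66 and 1.56 CPM (adjusted p 0.00667), Pcdhb22 at 10.8, 12.1, 12.6 and 6.85 CPM (adjusted p 0.00129) and Pcdhga4 at 3.12, 4.26, 3.69 and 2.17 CPM (adjusted p 0.0245). Without TSP-4 plasmid library D, or without both D libraries, these last 3 were not called, which left Pcdhgc3, Pcdhgc5 and Pcdhgb2. Without empty plasmid library D, Pcdhb22 and Pcdhgc4 were still called. Pcdhga4 was called in 10 of 17 other settings, and its call was also lost without either library of letter B and with DESeq2. On simulated data this letter test made more false calls than its nominal share, so its calls are to be read with that limit. Pcdhga8, whose letter means were 1.56, 1.76, 1.97 and 1.85 CPM, had an adjusted p of 0.756 between letters.

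**Figure D5:**
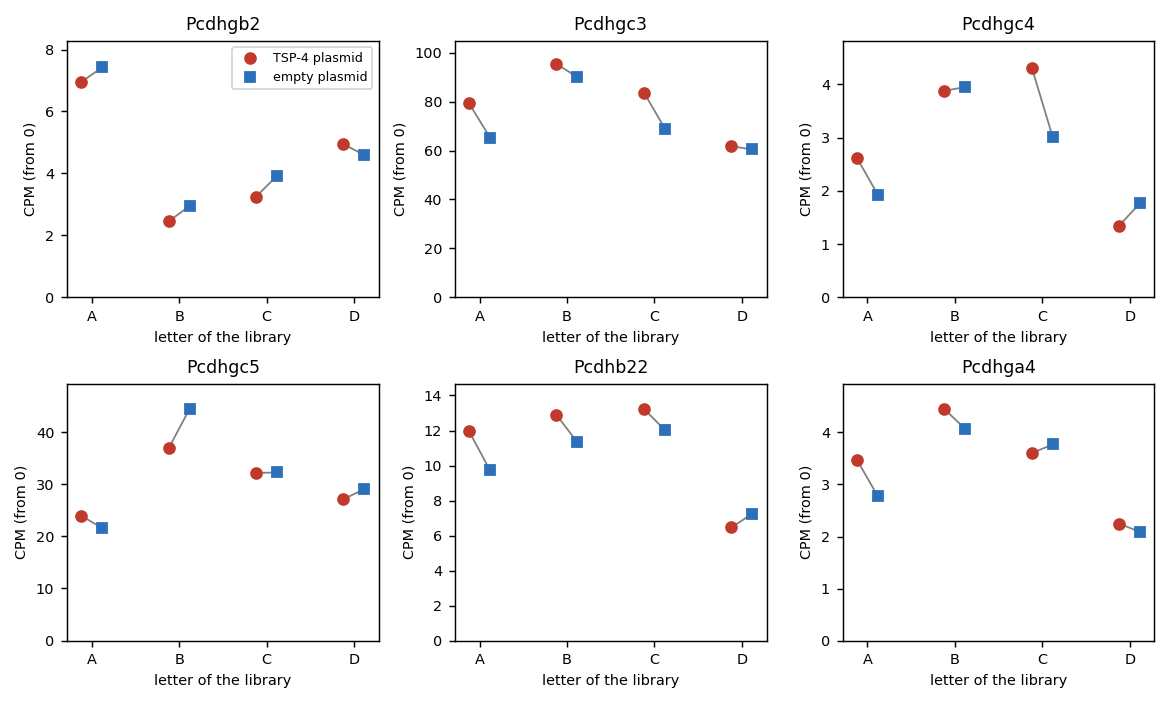
CPM of the 6 members that differed between letters, by letter A to D, with the TSP-4 plasmid library (red circle) left of the empty plasmid library (blue square) of the same letter and a line joining them; axes start at 0. Pcdhgb2 is highest in A and Pcdhgc5 highest in B under both plasmids, while libraries of 1 letter can also lie apart, as for Pcdhgc3 in A (79.3 CPM with the TSP-4 plasmid, 65.3 CPM with the empty plasmid).

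Over the 32 members, the highest letter mean was in B for 18, in A for 9, in C for 4 and in D for 1, and the lowest was in D for 18, in A for 6, in C for 5 and in B for 3. The median ratio of the highest to the lowest letter mean was 1.78. Cell-type markers also moved with the letters: fibroblast markers summed to 16930, 18277, 15386 and 13212 CPM in A to D, with 9 of 10 called between letters, and macrophage markers to 297, 813, 1448 and 643 CPM, with 8 of 8 called. The gamma sum was 141, 183, 152 and 128 CPM in A to D. Single fibroblast markers did not share 1 order of the letters, with Dcn at 134, 532, 366 and 167 CPM and Thy1 at 129, 101, 80.2 and 120 CPM in A to D. The part of cell makeup in the protocadherin differences between letters was not tested.

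Genes around the clustered protocadherins in function or position gave no call between the plasmids. In all 6 lists 0 of 60 tested genes passed, with or without the letter as a block, and 0 had an unadjusted p under 0.05 in the fit without it, beside 1.6% of all genes. With the block 3 did, beside 8.12% of all genes: Pcdh19 (log2 fold change -0.18), Fat4 (0.13) and Dnmt1 (-0.10), whose adjusted p in edgeR's test was 0.425, 0.562 and 0.575. The nonclustered protocadherins, single genes that also act in adhesion, had 8 of 11 tested and a median log2 fold change of 0.01. Pcdh7 was at 8.26 ± 0.435 FPKM in the TSP-4 plasmid group and 8.10 ± 0.472 FPKM in the empty plasmid group, Pcdh18 at 8.0 ± 2.59 FPKM in TSP-4 plasmid libraries and 7.20 ± 1.21 FPKM in empty plasmid libraries, and Pcdh19 at 3.83 ± 0.533 FPKM in TSP-4 plasmid libraries and 4.31 ± 0.305 FPKM in empty plasmid libraries (SD, n = 4 each). On the same full-length scale Pcdhgc3 averaged 13.7 FPKM over the 8 libraries and Pcdhgc5 4.03 FPKM. The large cadherins were led by Fat1, a regulator of cell polarity, at 81.7 ± 9.96 FPKM with the TSP-4 plasmid and 78.9 ± 9.02 FPKM with the empty plasmid, and 6 of 9 were tested with a median of 0.04. Of the classical cadherins 4 of 7 were tested with a median of 0.02. N-cadherin (Cdh2) stood at 56.8 ± 4.47 FPKM in TSP-4 plasmid libraries and 57.0 ± 1.51 FPKM in empty plasmid libraries, and the mesenchymal cadherin Cdh11 at 16.6 ± 1.5 FPKM in TSP-4 plasmid libraries and 16.003 ± 1.64 FPKM in empty plasmid libraries.

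Factors of promoter choice were all expressed, with 19 of 19 tested and a median log2 fold change of 0.00. Ctcf, which binds the protocadherin promoters, was at 7.42 ± 0.414 FPKM in the TSP-4 plasmid group and 6.999 ± 0.335 FPKM in the empty plasmid group, and the cohesin subunit gene Rad21 at 19.5 ± 1.79 FPKM in TSP-4 plasmid libraries and 19.6 ± 1.48 FPKM in empty plasmid libraries. Dnmt1, the maintenance DNA methyltransferase, was at 10.2 ± 0.670 FPKM in TSP-4 plasmid libraries and 10.9 ± 0.640 FPKM in empty plasmid libraries, and Dnmt3b, which methylates these promoters in early mouse development, at 0.155 ± 0.0429 FPKM in TSP-4 plasmid libraries and 0.130 ± 0.0401 FPKM in empty plasmid libraries. None of these 4 passed edgeR's test. Cytoplasmic partners and proteases had 13 of 13 tested with a median of 0.01. Among them were Ptk2b, a kinase that binds the protocadherin cytoplasmic part, at 15.4 ± 0.709 FPKM with the TSP-4 plasmid and 15.1 ± 0.522 FPKM with the empty plasmid, and Adam10, the sheddase of gamma protocadherins, at 36.7 ± 5.03 FPKM in TSP-4 plasmid libraries and 35.7 ± 1.97 FPKM in empty plasmid libraries. The neighbours of the locus had 10 of 12 tested with a median of 0.01. Taf7, which lies between the beta and gamma clusters, was at 0.869 ± 0.169 FPKM in the TSP-4 plasmid group and 1.01 ± 0.261 FPKM in the empty plasmid group.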

How the data were processed

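RNA of 8 libraries, 4 per plasmid group, was measured. The authors deposited whole-number read counts per gene and FPKM values, and both were used as deposited. Each FPKM equals the count over gene length times 1 constant per library. Per the labels' protocols, RNA was taken with Trizol and the NEBNext Ultra kit was used for sequencing libraries. Among tools, HTSeq 0.6.1, Cufflinks 2.1.1, TopHat2 2.0 and CASAVA appear in the submitters' processing notes, with builds mm10 and GRCm38.p6 and no role. How strand and multiply mapped reads were handled, and which annotation was used, is not given in the sources used here.

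Counts of all 54532 genes were filtered with edgeR 4.0.16 at its minimum count of 10 (14723 genes left), scaled with TMM factors and tested by edgeR's robust quasi-likelihood fit in R 4.3.3, with group alone and Benjamini-Hochberg adjustment at 0.05. Letters were tested in a fit with letter and group. Own exon bases came from GENCODE M21 on GRCm38, where all 57 members have the place and length the files give. DESeq2 1.42.0, limma 3.58.1 (voom), other scalings and filters, and left-out libraries were alternatives. Sums over members were not tested. The letters pair the libraries: deviations from group means correlated at 0.508 to 0.651 (Pearson's r across genes) within a letter and at -0.57 to 0.323 otherwise, although no label says what a letter marks. No library repeated another of its group (mean chi-square per gene at least 10.3). Across groups the closest pair was TSP-4 plasmid library D with empty plasmid library D, at 4.93, a mean that includes Thbs4.

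The members and lists were chosen with earlier results of these data known. Named members are Pcdhga8, the C-type genes, per cluster up to 6 with the highest mean FPKM and up to 3 with the smallest p per comparison and direction, and those next to the filter. From a list, the same 2 criteria give up to 3 genes each, of which a part is printed. Pcdhga4, Pcdhga10, Pcdhb12, the members at 0 and overlapping genes were named after their values were seen. Intervals and limits from counts cover counting error only where stated, and 95% intervals of fold changes include the spread between libraries.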

Additional observations from a re-analysis of the deposited data

Results flagged for a closer look

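In 1 of 62 groups of 4 libraries that were checked, a library stood apart when its gap was set against the range of its group. Pcdhb18 was at 1.48 CPM in TSP-4 plasmid library C, where the other TSP-4 plasmid libraries held 1.71 to 1.74 CPM, and the gap was 0.885 of the group's range. Its counts in TSP-4 plasmid libraries A to D were 38, 30, 25 and 31, so the flag rests on how close the other libraries lay. Chance gives such a library in about 5% of groups.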

How the results depend on the processing

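The count of members called between plasmids was 0 under 14 alternatives, among them DESeq2, limma voom, upper-quartile factors, other filters and each left-out library. With the letter as a replicate block, 0 members and 0 list genes were called. The smallest adjusted p of a member in the block fit was 0.425. The count of members that differed between letters was 6. It was 3 with both libraries of letter D left out, and 3 to 7 when 1 library was left out, the lowest without TSP-4 plasmid library D. DESeq2 called 5. Pcdhgc3, Pcdhgc5 and Pcdhgb2 were called in 17 of 17 other settings, Pcdhb22 and Pcdhgc4 in 15, Pcdhga4 in 10. Of 313 fold changes of named members recomputed between the plasmids, 25 had another sign, and 1, Pcdhga11 without empty plasmid library A, moved by more than its spread. Summed levels of the 3 clusters moved by less than their spread under every scaling tried, including 1 added after seeing the data (counts per own exon length). The log2 ratio of the alpha sum lay between 0.17 and 0.46 when 1 library was left out. Low counts limit most alpha and early beta members. In the main fit 25 members went untested, and with no filter on low counts 51 members were tested with 0 called between plasmids.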
